A study of Mus musculus with 8 samples.

Results

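The intermediate filament genes described here are Gfap, Des, Vim and Prph, which encode type III filament proteins, and Nes, Synm, Nefl and Nefm, which encode type IV and related proteins. They were taken by symbol from the probe sets with a single gene name, and all 8 were measured, each by 1 probe set, among 19938 genes in all. RNA came from hepatic stellate cells, liver pericytes that store retinoids, which were sorted on retinoid autofluorescence, and each of 8 samples was read on 1 array. The 4 control samples (replicates 1 to 4) came from Lhx2 floxed mice without Cre, and the 4 knockout samples (replicates 5 to 8) from Mx1Cre+ Lhx2 floxed mice, both on a C57BL/6J background. The treatment labels were read to say that both groups had been given poly(I:C), an inducer of interferon, 3 times. Cells were taken 2 weeks afterwards. The label of the controls without Cre also mentions Mx1Cre activation, and was read as the same poly(I:C) schedule. The ages of the mice are not in the labels. The Mx1 promoter that drives Cre responds to interferon in many cell types, so recombination in other cells is possible and was not measured, and the effect of Cre itself cannot be told apart from that of Lhx2 loss. Nothing in the labels ties an array to its own animal, so p-values describe the spread between arrays, which may be technical.

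Intermediate filaments are rope-like polymers that give a cell mechanical strength and anchor its organelles and adhesion sites. Vimentin, desmin, GFAP and peripherin can build filaments from one kind of subunit, whereas nestin and synemin join filaments made by vimentin or desmin, and the neurofilament proteins are the polymers of axons. Desmin and GFAP are classical markers of rodent stellate cells, GFAP is also the filament of astrocytes and other glia, and nestin is made by progenitor cells, endothelium and stellate cells.

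The values are log2 expression per probe set, so a difference of 1 is a 2-fold change. They ran from 4.19 to 14.42, and array medians lay between 7.42 and 7.47. Levels of different probe sets are not amounts that can be ranked. As a guide to unexpressed genes, 1190 olfactory and vomeronasal receptor genes had a median of 5.40 and a 95th percentile of 6.77. Gfap, Nes, Des, Vim, Synm and Prph lay above that percentile and Nefl and Nefm below it. Lhx2, the deleted gene, averaged 11.95 ± 0.08 in control and 11.29 ± 0.17 in knockout arrays (SD, n = 4 each), 63.3% of the control level (limma adjusted p = 0.00136). The floxed part is not in the labels, so its probe set may lie outside the deleted sequence. Loss of a cell type and less RNA per cell cannot be told apart in bulk samples.

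Among the 8 filament genes, Gfap, Nes and Vim fell and no gene rose. Gfap and Nes fell to 35.8% and 40.4% of the control level, Vim only to 87.9%, and Des, the other classical stellate cell filament, had a difference of 0.07 on the log2 scale. A gene counted as changed at an adjusted p under 0.05 in limma, adjusted over all 19938 genes, a rule that 3.63% of all genes met as lower and 3.76% as higher. The median difference of the 8 genes was -0.07, beside -0.02 over all genes. The unadjusted p was under 0.05 for 17.5% of all genes.

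Upstream sequence is shown for Gfap and Nes, the genes with the largest falls, and for Des as a stellate cell filament gene that did not pass the test. Each line gives the 250 bases before the RefSeq start site in GRCm38.p6, read in the direction of the gene. The window of Gfap is chr11:102897201-102897450 on the minus strand, that of Nes is chr3:87970843-87971092 on the plus strand, and that of Des is chr1:75360042-75360291 on the plus strand. Capitals mark the GC box, the core bound by Sp1-type factors.
Gfap: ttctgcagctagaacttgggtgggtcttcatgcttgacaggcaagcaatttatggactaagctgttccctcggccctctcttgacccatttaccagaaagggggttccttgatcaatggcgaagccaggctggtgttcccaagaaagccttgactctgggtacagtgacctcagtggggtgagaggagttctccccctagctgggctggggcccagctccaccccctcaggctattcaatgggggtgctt
Nes: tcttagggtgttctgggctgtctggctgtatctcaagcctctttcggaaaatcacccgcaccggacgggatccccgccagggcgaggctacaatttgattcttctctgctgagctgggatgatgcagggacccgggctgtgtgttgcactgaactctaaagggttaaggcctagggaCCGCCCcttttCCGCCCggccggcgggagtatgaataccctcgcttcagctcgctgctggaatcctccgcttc
Des: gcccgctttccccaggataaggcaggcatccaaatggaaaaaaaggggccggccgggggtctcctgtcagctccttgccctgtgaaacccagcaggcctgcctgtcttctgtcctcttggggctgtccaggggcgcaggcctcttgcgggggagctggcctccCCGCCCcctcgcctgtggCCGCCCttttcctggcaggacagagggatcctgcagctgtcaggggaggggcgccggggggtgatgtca

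RefSeq windows were found for 6 of the 8 genes, namely Des, Gfap, Nes, Prph, Synm and Vim. The motifs searched, on both strands, were the LIM homeobox core TAATTA, the STAT core TTCNNNGAA, the NFI palindrome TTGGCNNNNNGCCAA and the GC box GGGCGG, and no matches overlapped. The GC box was in 3 of the 6 windows and in 32.7% of all 32851 windows of the same length. The 6 windows held 55.6% to 70.0% G and C, above the median of 52.4% over all windows. The box is made of these letters alone, and the part of base content in its count was not tested. Nes carried it at -73 and -62 and Des at -87 and -69, counted in bases from the start site, and Prph at -24. Nes, which fell, and Des, which did not pass the test, both held the box, and its part in any change was not tested. The LIM homeobox, STAT and NFI letters were in 0 of the 6 windows, and in 4.84%, 7.02% and 0.0365% of all windows. These letters describe a short window and say nothing about binding.

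Gfap encodes glial fibrillary acidic protein. Its log2 level was 9.50, 9.32, 9.49 and 9.53 in control arrays 1 to 4, and 8.01, 7.91, 7.91 and 8.09 in knockout arrays 5 to 8. Every knockout array lay below every control array, with a gap of 1.23 between the groups and a range of only 0.21 and 0.18 within them. The means were 9.46 ± 0.10 and 7.98 ± 0.09 (SD, n = 4 each), a difference of -1.48 (SE 0.07, limma adjusted p = 2.03e-06). That is a 2.79-fold fall, to between 32.3% and 39.7% of the control level by the 95% interval. In order of size it was the 29th largest fall of all genes, and by p the 23rd strongest change. The knockout level stayed above the receptor percentile of 6.77 in each array.

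Nes encodes nestin, a large protein that joins vimentin or desmin filaments. Control arrays 1 to 4 had log2 levels of 10.83, 10.81, 11.19 and 10.63, and knockout arrays 5 to 8 had 9.49, 9.22, 9.78 and 9.73. Again the groups did not overlap, with a gap of 0.85, but arrays of one group spread over 0.56 in both groups, with control 3 high and knockout 6 low. The within-group SD of 0.25 was larger than that of 94.6% of all genes, whereas that of Gfap, 0.09, was larger than 36.6%. The means were 10.86 ± 0.23 and 9.55 ± 0.26 (SD, n = 4 each), a difference of -1.31 (SE 0.15, limma adjusted p = 0.000509). The 95% interval runs from 32.2% to 50.6% of the control level. Nes had the 43rd largest fall by size but the 269th place by p.

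Vim encodes vimentin, the filament protein of most mesenchymal cells. Its log2 level was 13.44, 13.44, 13.46 and 13.44 in control arrays 1 to 4 and 13.23, 13.21, 13.33 and 13.26 in knockout arrays 5 to 8. The control arrays spanned only 0.03, and each knockout array lay below them by at least 0.11. The difference was -0.19 (SE 0.05, limma adjusted p = 0.0437), which took place 1402 by p, close to the end of the 1472 genes called. This probe set was brighter than 99.7% of all genes, where array values can be compressed, and the part of that in the size of the fall was not tested. Leaving out single arrays ended the call in 7 of 8 cases, the exception being knockout 7, with limma adjusted p between 0.077 and 0.141 and differences between -0.19 and -0.17.

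Des encodes desmin, the filament protein of muscle and of stellate cells. Its log2 level was 12.46, 12.31, 12.54 and 12.39 in control arrays and 12.44, 12.45, 12.59 and 12.51 in knockout arrays. The groups overlapped, and the arrays of both spread over 0.23 or less. The difference of 0.07 (SE 0.06, limma adjusted p = 0.688) had a 95% interval from -0.07 to 0.22, so a fall of the size seen in Gfap or Nes lay outside it. Like that of Vim, this probe set was bright, above 98.3% of all genes, where array values can be compressed. The part of that in the small difference was not tested.

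Synm encodes synemin, which links desmin and vimentin filaments to adhesion sites. Control arrays had log2 levels of 8.81, 8.95, 9.20 and 9.04 and knockout arrays 9.27, 9.44, 9.35 and 9.11. All knockout arrays except number 8 lay above all controls, and the groups overlapped by 0.09. The difference of 0.29 (SE 0.10) had an unadjusted p of 0.0135 and a limma adjusted p of 0.123, and so did not pass.

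The filaments of neurons gave no such difference. Prph, peripherin of peripheral neurons, had log2 levels of 7.22, 7.16, 6.94 and 7.25 in control and 7.14, 7.02, 7.19 and 7.08 in knockout arrays, which overlapped widely (difference -0.03, 95% interval -0.20 to 0.14, limma adjusted p = 0.912). Nefl, the light neurofilament chain, lay between 5.73 and 5.82 in control and between 5.62 and 5.75 in knockout arrays, with a difference of -0.11 (SE 0.05, limma adjusted p = 0.285). Nefm, the medium chain, lay between 5.91 and 6.09 in control and between 5.95 and 6.05 in knockout arrays, with a difference of 0.01 (SE 0.06, limma adjusted p = 0.974). Both neurofilament genes sat among the receptor genes, above 70.8% and 80.7% of them, so a change could hardly be measured there.

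**Figure D1:**
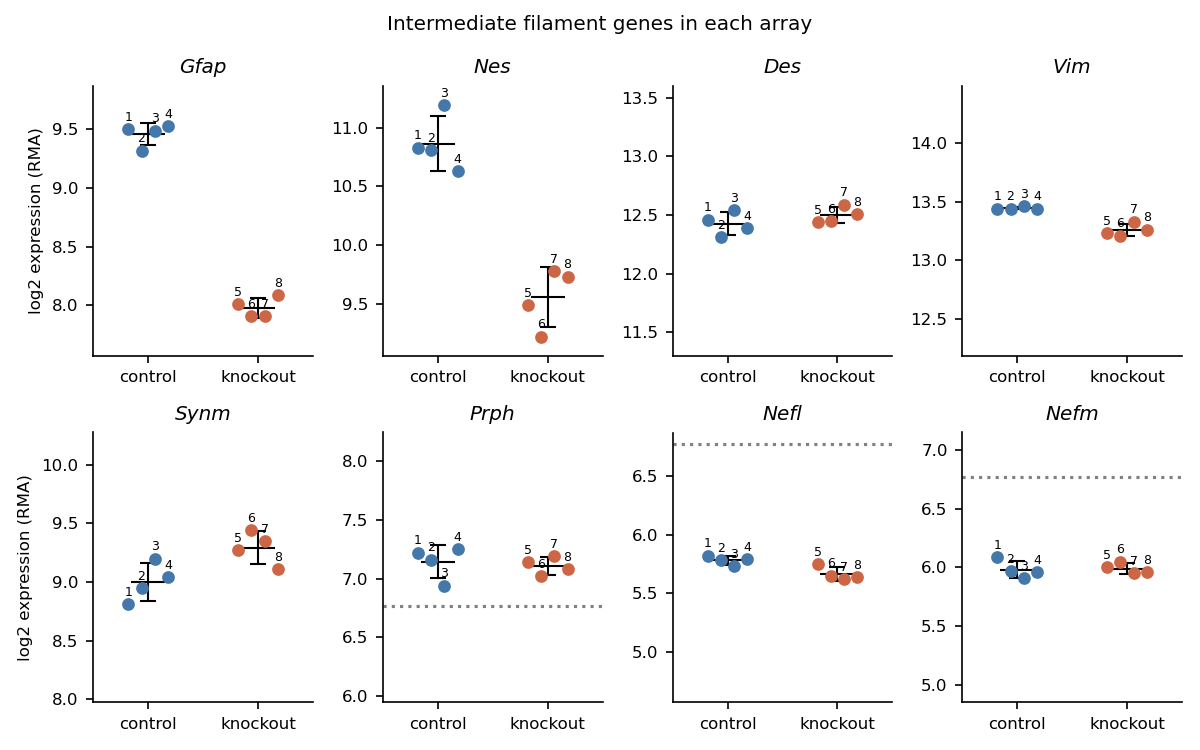
Log2 expression of each filament gene (vertical axis, the same span of 2.3 in each panel) in control arrays 1 to 4 (blue) and knockout arrays 5 to 8 (orange), with mean and SD in black and the receptor 95th percentile of 6.77 dotted where it falls in the panel. Gfap and Nes separate by 1.23 and 0.85 between the groups, Vim by 0.11, and the other genes overlap.

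The groups did not overlap for Gfap, Nes and Vim, all with the knockout below, which held for 6.32% of all genes. To set the falls against desmin on the same array, the Des value was subtracted from every gene and all 19937 other genes were fitted again, which called 4.26% of them lower and 2.16% higher. Gfap minus Des went from -2.96 ± 0.08 to -4.52 ± 0.12 (SD, n = 4 each), a difference of -1.56 (SE 0.08, limma adjusted p = 4.85e-07). Nes minus Des went from -1.56 ± 0.18 to -2.94 ± 0.21, a difference of -1.38 (SE 0.12, limma adjusted p = 1.7e-05). Gfap and Nes thus changed unequally with desmin. Des itself differed by only 0.07, so these differences largely repeat those without the subtraction and are no separate evidence. The SE of Nes was smaller than without the subtraction (0.12 against 0.15). Vim minus Des differed by -0.26 (SE 0.07) with a limma adjusted p of 0.0655, and Synm minus Des by 0.22 (SE 0.10, limma adjusted p = 0.327). Prph, Nefl and Nefm minus Des differed by -0.11, -0.19 and -0.07, none past the threshold.

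**Figure D2:**
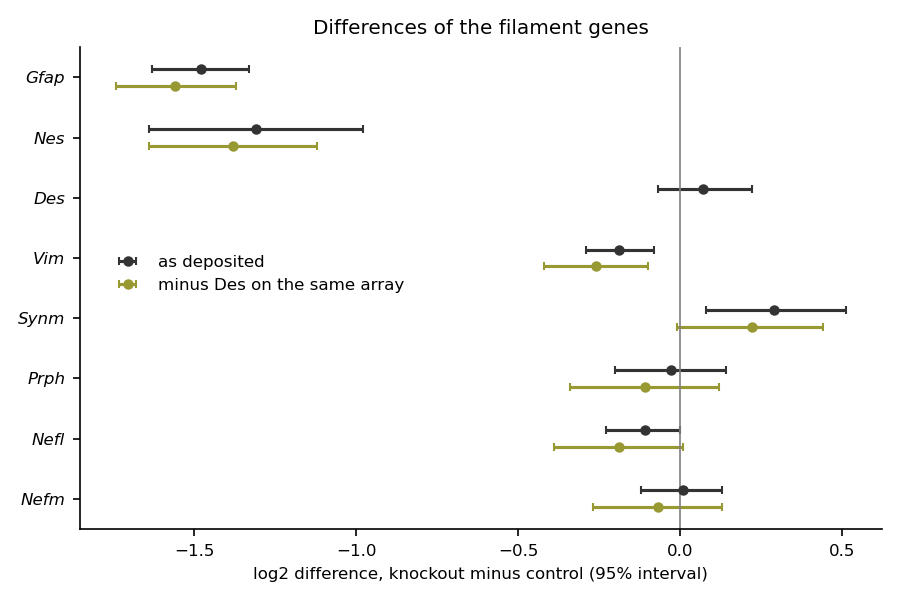
Log2 difference, knockout minus control, of each filament gene (points) with its 95% interval in limma (bars), from the deposited values (dark) and after subtraction of Des on the same array (olive). The intervals of Gfap and Nes lie below -0.9 in both, and that of Des runs from -0.07 to 0.22.

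Arrays of one group that were high in one filament gene were not high in all. Control 3 had the highest level of Nes, Des, Vim and Synm in its group and the lowest of Prph, Nefl and Nefm. Control 2 had the lowest level of Gfap and Des. Among knockout arrays, number 7 was highest in Nes, Des, Vim and Prph, while number 8 was highest in Gfap and lowest in Synm.

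Of the 13676 genes above the receptor percentile outside the filament set, the ones most like each changed gene were found by the root mean square difference over the 8 arrays, after each gene was centred on its own mean. Nearest to Gfap were Esam, an immunoglobulin-domain adhesion molecule (0.0762 on the log2 scale), Cdh18, a cadherin (0.0868), and Nkain2, a membrane protein that interacts with the sodium pump (0.119). They fell by 1.46 (SE 0.08), 1.45 (SE 0.08) and 1.31 (SE 0.07). Nearest to Nes were Cysltr1, a receptor of cysteinyl leukotrienes (0.157), Nkain2 (0.16) and Zfp804b, a zinc finger gene (0.178), and Cysltr1 and Zfp804b fell by 1.21 (SE 0.10) and 1.47 (SE 0.11). Gfap and Nes themselves differed by 0.228, so each had closer genes than the other. The distance takes in the difference between the groups, so the genes nearest to Gfap or Nes had to fall by similar amounts. Among 13676 genes some are likely to be closer than 1 named gene, so this is a description only. Nearest to Vim were Aldoa, the glycolytic enzyme aldolase A (0.0281), Hdac7, a histone deacetylase (0.0297), and Rtn3, a reticulon (0.0304), whose differences of -0.15, -0.17 and -0.16 did not pass the test.

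**Figure D3:**
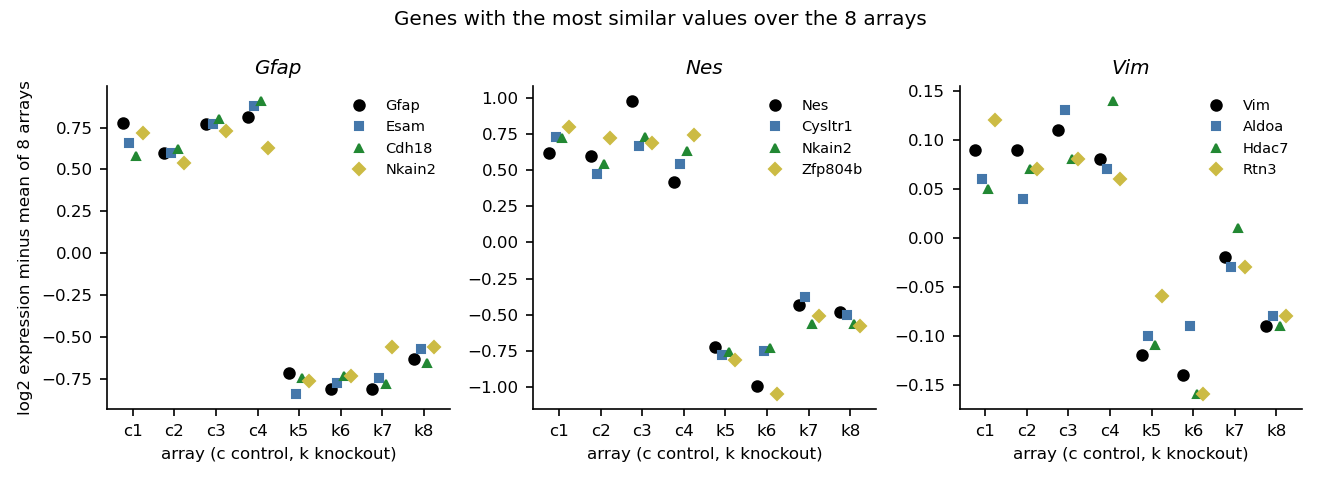
Log2 expression minus the mean of the 8 arrays (vertical axis) for Gfap, Nes and Vim (black) and the 3 genes nearest to each, in control arrays c1 to c4 and knockout arrays k5 to k8. Control 3 of Nes stands above its neighbour genes, and the Vim panel covers a far smaller span than the other panels.

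Other filament genes, filament partners and regulators were taken from 8 lists with 94 measured genes, of which 4 rose (4.26%, beside 3.76% of all genes) and 5 fell (5.32%, beside 3.63%). None of 7 other neuronal and muscle filament genes, 8 keratins, 14 lamin and lamina genes, 11 plakins and linkers and 9 chaperone and turnover genes passed. The largest differences there were those of Ina, alpha-internexin (-0.12), Krt23, a keratin (-0.12), Lmna, lamin A/C (-0.40, SE 0.13, limma adjusted p = 0.133), Dsp, desmoplakin (-0.16), and Hspb8, a small heat shock protein (-0.42, SE 0.12, limma adjusted p = 0.0814). The list medians were 0.05, -0.03, -0.02, -0.04 and -0.12 in this order.

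The sites to which synemin and desmin filaments attach changed in part. Of 11 measured genes 2 fell, 1 rose and 8 did not pass, with a median of 0.00. Over all genes 3.63% fell and 3.76% rose. Zyx, zyxin of focal adhesions, fell by 0.70 (SE 0.12), from 11.01 ± 0.07 to 10.31 ± 0.27 (SD, n = 4 each; limma adjusted p = 0.00595), a call lost without both control 1 and control 4 (limma adjusted p = 0.0545). Vcl, vinculin, which ties adhesion sites to actin, fell by 0.34 (SE 0.06, limma adjusted p = 0.00793), a call lost with hepatocyte and endothelial marker levels as covariates (-0.27, limma adjusted p = 0.0526). Dtnb, a dystrobrevin of the dystrophin complex, rose by 0.28 (SE 0.06, limma adjusted p = 0.0195), a call lost without knockout 5, 7 or 8 (limma adjusted p up to 0.0569) and without both control 1 and control 4 (0.072). Of 12 measured kinases that phosphorylate filaments, the protein kinase C genes Prkca (0.49, SE 0.09, limma adjusted p = 0.012) and Prkcd (0.47, SE 0.09, limma adjusted p = 0.0101) rose and the other 10 did not pass, with a median of -0.01. Both calls were lost without control 1 and control 4, where Prkca differed by 0.36 (limma adjusted p = 0.0866) and Prkcd by 0.46 (limma adjusted p = 0.0525).

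Of 22 measured factors known to act on the promoters of Gfap, Nes, Vim or Des, 3 fell, 1 rose and 18 did not pass. Their median was -0.06, and over all genes 3.63% fell and 3.76% rose. Srf, serum response factor, fell by 0.60 (SE 0.08), from 10.87 ± 0.08 to 10.27 ± 0.14 (SD, n = 4 each; limma adjusted p = 0.0012). Smad1, a transducer of BMP signals, fell by 0.31 (SE 0.06, limma adjusted p = 0.0174), and Notch1, a Notch receptor, by 0.30 (SE 0.06, limma adjusted p = 0.0208). Smad1 lost its call without control 4, knockout 5 or knockout 6 (limma adjusted p up to 0.0628), and Notch1 without control 4, knockout 5 or knockout 7 (up to 0.0647). With the marker covariates Smad1 had a limma adjusted p of 0.108 and Notch1 of 0.104, and without both control 1 and control 4 they had 0.0716 and 0.189. Rbpj, the DNA-binding partner of Notch, rose by 0.31 (SE 0.06, limma adjusted p = 0.0138), lost without knockout 6 (limma adjusted p = 0.0521) and without both control 1 and control 4 (0.14), and as a mean over its probe sets it differed by 0.11 (limma adjusted p = 0.235). Without control 4 or knockout 5 the number fallen over the 8 lists went from 5 to 3, and without both control 1 and control 4 the counts were 0 risen and 3 fallen.

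**Figure D4:**
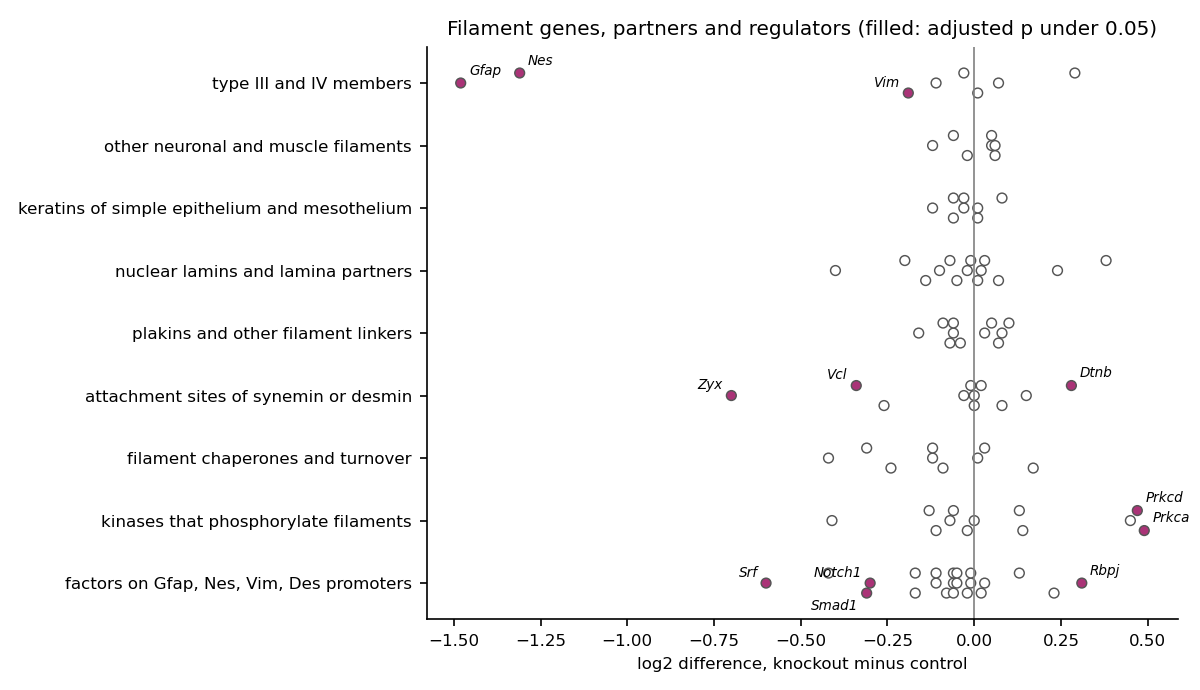
Log2 difference, knockout minus control, of each measured gene (points) in the filament set and 8 lists of other filament genes, partners and regulators, filled and named where the limma adjusted p was under 0.05. Gfap and Nes lie at -1.48 and -1.31, beyond every other gene plotted, of which Zyx at -0.70 comes closest.

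The labelled cell type was checked against markers. Of 13 measured stellate cell markers all lay above the receptor percentile, with mean levels of 13.95 for Dcn, decorin, 13.87 for Ecm1, a matrix protein, and 13.70 for Lrat, the retinol-esterifying enzyme. None of these 3 passed the test, while 5 of the 13 fell and 0 rose (median -0.12), beside 3.63% and 3.76% of all genes. The same shares of all genes apply to the marker counts below. The falls were led by Angptl6, a secreted factor (-0.92, SE 0.08), the deleted gene Lhx2, and Rgs5, a regulator of G protein signalling (-0.52, SE 0.05). The mean level of the 13 markers, which include Lhx2 and Des, was 13.12 to 13.21 in control and 12.91 to 12.97 in knockout arrays.

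Markers of glia and neurons, the other cells known for these filaments, had mean levels near the receptor percentile, and none differed past the threshold. Of 12 measured glial markers 5 lay at or below the receptor percentile, among them Cdh19 at 5.19 and S100b at 6.70 (both named after their values were seen), and 0 were called (median -0.03). Their mean level was 6.79 to 7.07 in control and 6.90 to 6.98 in knockout arrays. Above the percentile were, among others, Aldh1l1 (8.64), an enzyme that hepatocytes make too, Sox10 (7.67), the transcription factor of Schwann cells, and Erbb3 (7.49). Of 11 neuronal markers 6 lay at or below the percentile, 0 were called (median 0.02), and the mean level was 6.65 to 6.82 in control and 6.69 to 6.77 in knockout arrays, with Syp at 8.55, Elavl3 at 7.32 and Rbfox3 at 7.20.

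Sinusoidal endothelium, which can make nestin, was present and uneven. All 12 of its markers lay above the percentile, their mean level was 8.57 to 11.28 in control and 8.56 to 9.99 in knockout arrays, and their median difference was -0.72. Of the 12, only Clec4g, a lectin of this endothelium, fell past the threshold (-1.23, SE 0.25, limma adjusted p = 0.0177), a call lost without control 2 or knockout 5 (limma adjusted p up to 0.058) and with a trended, robust prior (limma adjusted p = 0.0652). As a mean over its probe sets it differed by -0.78 (limma adjusted p = 0.0073). All 12 markers were lower on average in knockout arrays, with differences from -1.23 to -0.32. The 95% interval of Gpr182 ran from -1.63 to -0.37, but it did not pass (limma adjusted p = 0.0695). The spread within groups was wide, so sizeable falls of these markers could miss the threshold. Gpr182 and Ptprb had mean levels of 10.37 and 10.25. With hepatocyte and endothelial marker levels as covariates, Nes differed by -1.16 (SE 0.10, limma adjusted p = 0.000394) and Gfap by -1.49 (SE 0.09, limma adjusted p = 4.64e-05). With control 1 (highest in hepatocyte markers) and control 4 (highest in endothelial markers) both left out, Nes differed by -1.44 (limma adjusted p = 0.00452) and Gfap by -1.43 (limma adjusted p = 0.000158). These fits do not measure the share of endothelial cells in a sample. The part of endothelium in the fall of Nes was not tested.

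The mean level of portal fibroblast markers moved with the groups, but not every marker did. It was 8.02 to 8.16 in control and 8.77 to 9.00 in knockout arrays. Of 12 measured 5 rose and 0 fell (median 0.21), led by Cd34 (3.08, SE 0.23), Dpep1 (2.37, SE 0.21) and Dpt (2.28, SE 0.34). The 7 that did not pass were Fbln2 (0.27), Clec3b (0.14), Cd248 (0.13), Gli1 (-0.01), Pi16 (-0.01), Thy1 (-0.10) and Entpd2 (-0.29). Over all genes 3.76% rose and 3.63% fell. Cd248, Dpt and Eln had mean levels of 10.75, 10.00 and 9.78. The part of these cells in the falls of Gfap and Nes was not tested. Of 9 vascular smooth muscle markers, of which Des is one, Tagln (0.77, SE 0.13) and Synpo2 (0.59, SE 0.11) rose and Smtn (-0.36, SE 0.05) fell (median -0.01; Synpo2 had a limma adjusted p of 0.0622 without control 1 and control 4), at a mean level of 9.21 to 9.36 in control and 9.29 to 9.50 in knockout arrays.

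Hepatocyte markers were high, with Alb at 13.02, Apoa1 at 11.07 and Serpina1c at 10.70, and 0 of 11 were called (median 0.03). Their mean level was 8.83 to 11.04 in control and 9.24 to 10.74 in knockout arrays. With so wide a spread within groups, sizeable differences could miss the threshold. The largest fall was that of Cyp2e1 (-1.21, SE 0.43, limma adjusted p = 0.157) and the largest rise that of Serpina1c (0.40, SE 0.65, limma adjusted p = 0.552). Of 11 markers of Kupffer cells and other leukocytes 1 fell, Cd68 (-0.61, SE 0.14, limma adjusted p = 0.0278; up to 0.0852 without single arrays), with a median of 0.04 and mean levels of 7.30 to 8.09 in control and 7.28 to 7.69 in knockout arrays. The largest fall among the 11 was that of Vsig4 (-1.24, SE 0.39, limma adjusted p = 0.104) and the largest rise that of Lyz2 (0.30, SE 0.35, limma adjusted p = 0.417). Clec4f differed by -0.45 (SE 0.12, limma adjusted p = 0.0517). Cholangiocytes, which carry keratins, had 0 of 6 markers called (median -0.04), at a mean level of 6.61 to 6.80 in control and 6.63 to 6.81 in knockout arrays. Mesothelium had 1 of 7 called, Wt1, which fell by 0.24 (SE 0.05, limma adjusted p = 0.0291; up to 0.0879 without single arrays), with a median of 0.01 and mean levels of 6.71 to 6.90 in control and 6.70 to 6.82 in knockout arrays.

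**Figure D5:**
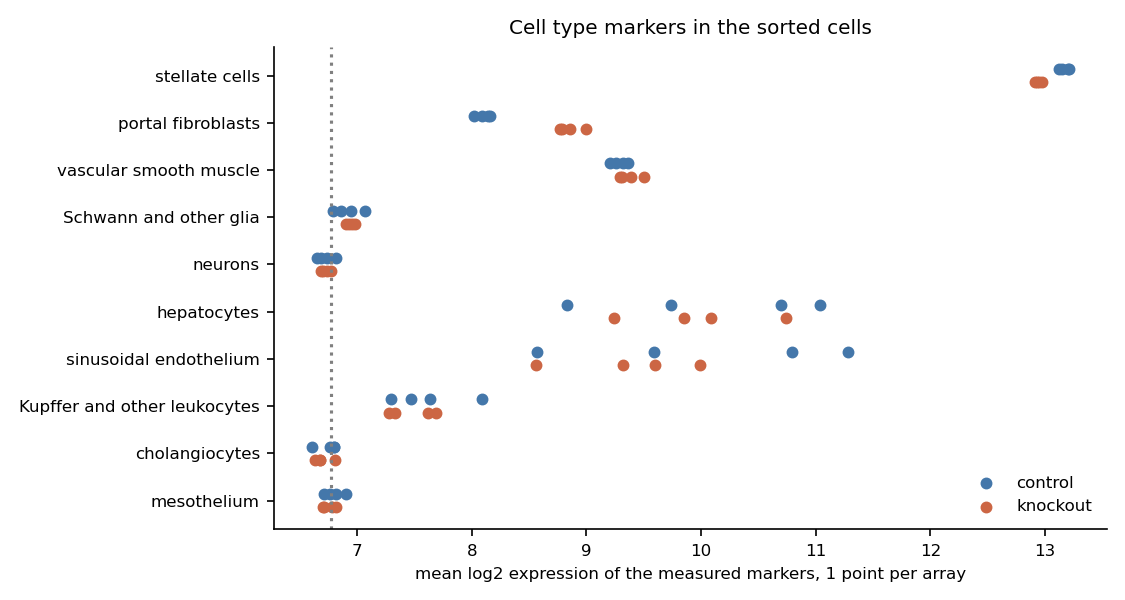
Mean log2 expression of the measured markers of each cell type (horizontal axis), 1 point per array, in control (blue) and knockout (orange) samples, with the receptor 95th percentile of 6.77 dotted. Glial and neuronal markers lie close to that line in both groups. The mean of the portal fibroblast markers, of which 5 of 12 were called, is higher in all knockout arrays. Endothelial markers spread from 8.57 to 11.28 in control arrays.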

How the data were processed

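The authors deposited log2 expression values per probe set, normalized with RMA (Robust Multichip Algorithm) per the submitters' processing notes. The RMA version, its annotation and any scan batch were not given in the sources used here. Of 35556 probe sets, 21789 carried 1 gene symbol in the platform annotation, 1621 several (left out) and 12146 none. The probe set with the highest mean stood for a gene, which gave 19938 genes. Knockout was compared with control over 8 arrays with lmFit and eBayes of limma 3.58.1 (R 4.3.3), two-sided, Benjamini-Hochberg adjusted over all genes at 0.05, with no filter; the step was tested on simulated data. Precision is limited by the number of arrays. The members and lists were chosen with earlier results of these data known. Named were all members, Lhx2, and up to 4 called genes per filament list (or the largest difference where none was called). Also named were up to 3 called and the 3 highest markers per cell type, and the 3 most similar genes per changed member. For cholangiocytes and mesothelium only called markers were named. The portal fibroblast markers that did not pass, Cyp2e1, Vsig4, Lyz2 and Clec4f were named after their values were seen. Promoter sequences came from RefSeq (GRCm38.p6). No set test was run. Alternatives covered scaling, dim genes, the prior, array weights, probe sets, left-out arrays, covariates and a threshold of 0.01.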

Additional observations from a re-analysis of the deposited data

Results flagged for a closer look

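Gfap in control 2 stood apart from the other control arrays, at 9.32 against 9.49 for the nearest of them, a gap of 0.831 of the whole range of the group, just past the 95% critical value of Dixon's test for 4 samples. Among 16 gene-by-group sets examined it was the only one past that value, and chance gives about 1 in 20. Without control 2 the difference of Gfap was -1.53 (limma adjusted p = 1.06e-05).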

How the results depend on the processing

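Gfap and Nes kept their direction and their call under all 16 alternatives that give them a value, with differences between -1.53 and -1.43 for Gfap and between -1.44 and -1.16 for Nes, and limma adjusted p up to 0.000158 and 0.00452; the same held relative to Des (-1.61 to -1.50 and -1.52 to -1.26). Vim kept its direction in all 16 (-0.21 to -0.14) and its call in 5, and was lost with quantile normalization (limma adjusted p = 0.0825), the filter on dim genes (0.0558), the covariates (0.186), without control 1 and control 4 (0.212) and without 7 of the 8 single arrays; relative to Des it passed in 5 of 16, at an adjusted p of 0.00556 to 0.0399. Fallen members were 3 or 2 and risen ones 0 in every setting, a threshold of 0.01 included. Des (0.04 to 0.12) and Synm (0.22 to 0.36) kept their sign and did not pass. Prph (-0.10 to 0.00 with 1 array left out) turned to 0.00 without control 4 and 0.06 without control 1 and control 4, and Nefm (-0.02 to 0.05 among all alternatives but the covariates) to -0.02 without control 3, -0.01 without knockout 6 and -0.04 with the covariates, all far from the threshold. Over the 8 filament lists the number fallen, 5, was 8 with array weights, 2 with the covariates, 3 without control 1 and control 4 and 3 at a threshold of 0.01, and 3 to 6 with 1 array left out; the number risen, 4, was 0 without control 1 and control 4 and 0 at a threshold of 0.01, and 3 to 4 with 1 array left out. Over all genes, 1472 calls became 776 without control 1 and control 4, a comparison of fewer arrays, and 775 at 0.01. These list counts were run under the alternatives after the data were seen. No paired analysis was possible because control arrays carry the numbers 1 to 4 and knockout arrays 5 to 8, so no number is shared. Nefl and Nefm have no value under the filter on dim genes, since both lie among the receptor genes.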
